A study of Saccharomyces cerevisiae with 21 samples.

Results

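The left arm of chromosome II of budding yeast was described through the genes whose systematic names start with YBL, the code for that arm. Of 112 YBL genes in the gene table, 105 had a probe set that named a single S. cerevisiae gene. Leaving out 6 genes with ribosomal protein symbols (RPL19B, RPL23A, RPL32, RPS8A, MRPL16 and MRP21) and 5 genes set aside by name (ECM13, FUS3, HTA2, HTB2 and SSA3) left 94 of the 5449 genes measured. The 94 genes were chosen by position, but the arm itself was picked because its mutant minus wild type differences had been seen to shift as a whole in these arrays. Every comparison of a mutant with the wild type, and every difference between media made from such comparisons, is therefore a description here, without a test of the arm.

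The study used 21 Affymetrix arrays, in 7 groups of 3. RNA came from cultures in mid-log growth at 30 °C and was labelled with biotin. The first mutant, gal11Δ med3Δ, is MATα with med3Δ::kanMX4 and med15Δ::kanMX4 in a his3Δ1 leu2Δ0 met15Δ0 ura3Δ0 background. The second, gal11-myc med3Δ, is MATa his3Δ1 leu2Δ0 ura3Δ0 with med3Δ::URA3, GAL11-13MYC::HIS3MX and srb4Δ::kanMX, and it carries SRB4 on a centromeric LEU2 plasmid (RY2844). The wild type is MATa his3Δ1 leu2Δ0 met15Δ0 ura3Δ0. These 3 strains were each grown in a rich medium, YPD, and in CSM, a complete synthetic medium. A second wild type, BY4742, labelled MATa his3Δ1 leu2Δ0 lys2Δ0 ura3Δ0, was grown in YPD only. Its MATa label is in doubt, since STE2, the pheromone receptor gene of MATa cells, differed strongly between it and the wild type in the authors' deposited table. More than the tail genes thus sets these 3 strains apart. By the labels gal11Δ med3Δ is the only MATα strain among them, while gal11-myc med3Δ is MATa like the wild type. The markers of each mutant are unlike those of the wild type and of the other mutant. In gal11-myc med3Δ the source of SRB4 is also different. The labels do not say whether the 3 arrays of a group came from separate cultures, so the spread given here may be technical.

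Mediator is the coactivator that joins gene-specific activators to RNA polymerase II. Its tail module, which holds Gal11 (Med15) and Med3 (gene PGD1), is the part that many activators touch, and its loss is known in yeast to lower strongly regulated genes such as those of stress and nutrient responses more than housekeeping genes. A chromosome arm is not a regulatory unit of this kind. The genes of the left arm of chromosome II encode proteins of DNA replication, mitosis, transcription, mitochondria, membrane traffic and metabolism, with retrotransposon copies in the arm and repeated subtelomeric genes at its end.

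The deposited values are log2 values in which each probe set was set to a median of 0 over the 9 YPD arrays of the mutants and the wild type, over the 9 CSM arrays of the same strains, and over the 3 BY4742 arrays. A value is thus a level relative to the other arrays of its set, and only differences between groups of the same set can be read. With 6 mutant arrays and 3 wild type arrays in a set, a probe set that is alike in both mutants sits near 0 in them whichever strain departed. The targeted genes matched the labels. GAL11 was lower in gal11Δ med3Δ than in wild type by a log2 difference of -6.43 ± 0.15 (SE) in YPD and -5.62 ± 0.15 in CSM, against -0.59 and -0.55 in gal11-myc med3Δ, where it is tagged and not deleted. PGD1 was lower in both mutants, with log2 differences of -4.51 and -4.26 in gal11Δ med3Δ, with -4.30 and -4.05 in gal11-myc med3Δ (YPD, then CSM). Several arrays stood apart from the other two of their group. The SD of log2 differences between arrays was taken over all 10928 probe sets, of which 5498 matched a gene analysed here. For the first gal11Δ med3Δ array in CSM it was 0.310 and 0.320, against 0.149 between the others. On that array 23.0% of genes outside chromosome II lay above a log2 value of 0.3, against 9.62% and 8.36% on the others. The third wild type array in YPD (SD 0.314 and 0.334, against 0.186), the third gal11-myc med3Δ array in YPD (0.295 and 0.315, against 0.164) and the first BY4742 array (0.292 and 0.309, against 0.103) stood apart likewise.

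In CSM the arm as a whole was lower in both mutants than in the wild type. The median log2 value of the 94 genes was 0.01, -0.05 and -0.09 on the 3 gal11Δ med3Δ arrays and -0.06, -0.06 and -0.01 on the 3 gal11-myc med3Δ arrays, against 0.71, 0.70 and 0.70 on the 3 wild type arrays. The means of these array medians were -0.04 ± 0.05 in gal11Δ med3Δ, -0.05 ± 0.03 in gal11-myc med3Δ and 0.70 ± 0.01 in wild type (SD, n = 3 arrays each). No mutant array overlapped a wild type array. Between 3 and 12 of the 94 genes lay above 0.3 on the gal11Δ med3Δ arrays and 0 on the gal11-myc med3Δ arrays, against 72 on each wild type array. On the same wild type arrays the median of the genes outside chromosome II was -0.04, -0.04 and -0.01. In YPD the median of the arm lay between -0.02 and 0.03 on all 9 arrays of the 3 strains. The arrays measured bulk cultures, so fewer cells with a transcript and less of it per cell cannot be told apart.

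**Figure D1:**
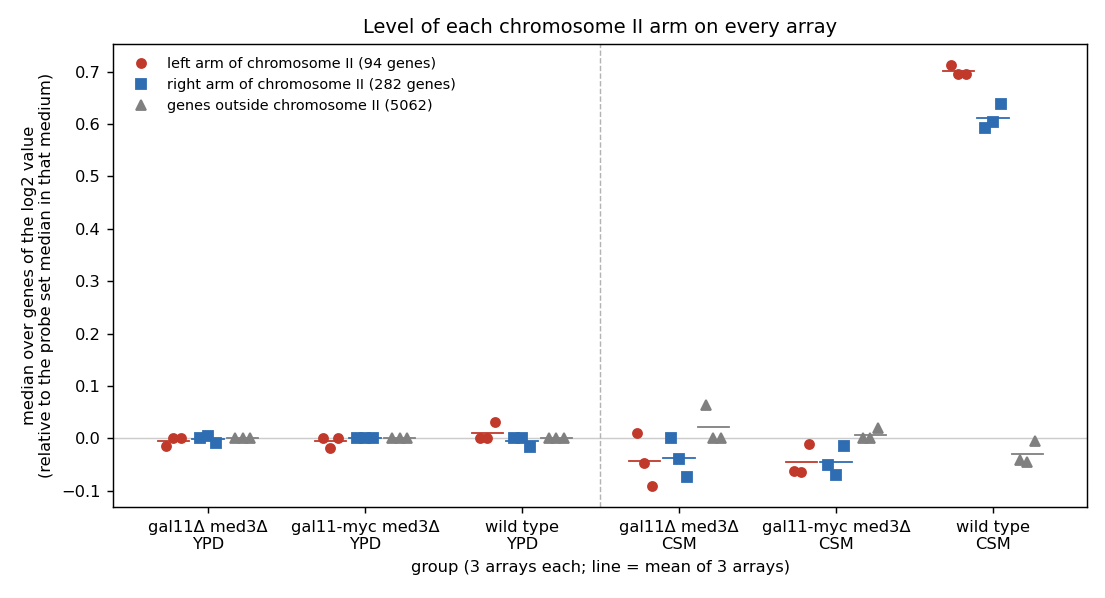
Median log2 value of the 94 genes of the left arm on each array (filled symbols), beside the medians of the right arm and of the genes outside chromosome II, for the YPD and CSM sets; values are relative to the median of each set of 9 arrays. The 3 wild type arrays in CSM lie at 0.71, 0.70 and 0.70 for the left arm, and all mutant arrays in CSM and all YPD arrays lie near 0.

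Set as differences, the median gene of the arm in CSM was lower than wild type by a log2 difference of -0.77 in gal11Δ med3Δ, a linear ratio of 0.585, and by -0.80 in gal11-myc med3Δ, a ratio of 0.573. The lower and upper quartiles of the 94 genes were -1.09 and -0.40 in gal11Δ med3Δ, with -1.04 and -0.49 in gal11-myc med3Δ. A log2 difference below -0.5 was found for 64 of the 94 genes (68.1%) in gal11Δ med3Δ and 70 (74.5%) in gal11-myc med3Δ, against 6.74% and 4.90% of the 5062 genes outside chromosome II. Both mutants are compared with the same 3 wild type arrays, so a departure of those arrays enters both comparisons, and the near equality of these medians is not a second measurement. Without the first gal11Δ med3Δ array the median was -0.82. Over the genes outside chromosome II the medians were 0.07 in gal11Δ med3Δ and 0.08 in gal11-myc med3Δ.

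Genes were called with limma at an adjusted p under 0.05 (Benjamini-Hochberg over the 5449 genes), whatever the size of the difference. In CSM, 73 of the 94 genes were called lower and 6 higher in gal11Δ med3Δ, beside 18.4% lower and 27.1% higher among all genes. In gal11-myc med3Δ 77 were called lower and 4 higher, beside 14.2% and 22.4% of all genes. Calls of at least 2-fold lower numbered 28 of the 94 in gal11Δ med3Δ (4.22% of all genes) and 30 in gal11-myc med3Δ (3.27%). The 3 mutant arrays lay wholly below the 3 wild type arrays for 80 of the 94 genes in gal11Δ med3Δ, beside 24% of all genes, and for 82 in gal11-myc med3Δ, beside 27.6%. They lay wholly above for 8 and 6 genes, beside 34.2% and 43.1%. Because the arm was chosen on these contrasts, nothing is read from the gap between these counts and those for all genes.

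The right arm of the same chromosome moved likewise. Its 282 genes had a median log2 difference of -0.71 in gal11Δ med3Δ and -0.72 in gal11-myc med3Δ in CSM, and 0.03 and 0.05 in YPD. On the wild type arrays in CSM its median values were 0.59, 0.60 and 0.64. The 30 arms of the other chromosomes had medians between -0.01 and 0.19 in gal11Δ med3Δ and between 0.04 and 0.25 in gal11-myc med3Δ in CSM. The left arm of chromosome II was the lowest of the 32 arms in both comparisons. In YPD it ranked 22 from the lowest in gal11Δ med3Δ, where both arms of chromosome V stood highest with medians near 0.80. It was again the lowest of 32 in gal11-myc med3Δ in YPD, but there its median of -0.02 stood beside -0.02 for the lowest arm of another chromosome. The number of copies of chromosome II in these strains was not measured by these arrays, and whether it differs was not tested.

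**Figure D2:**
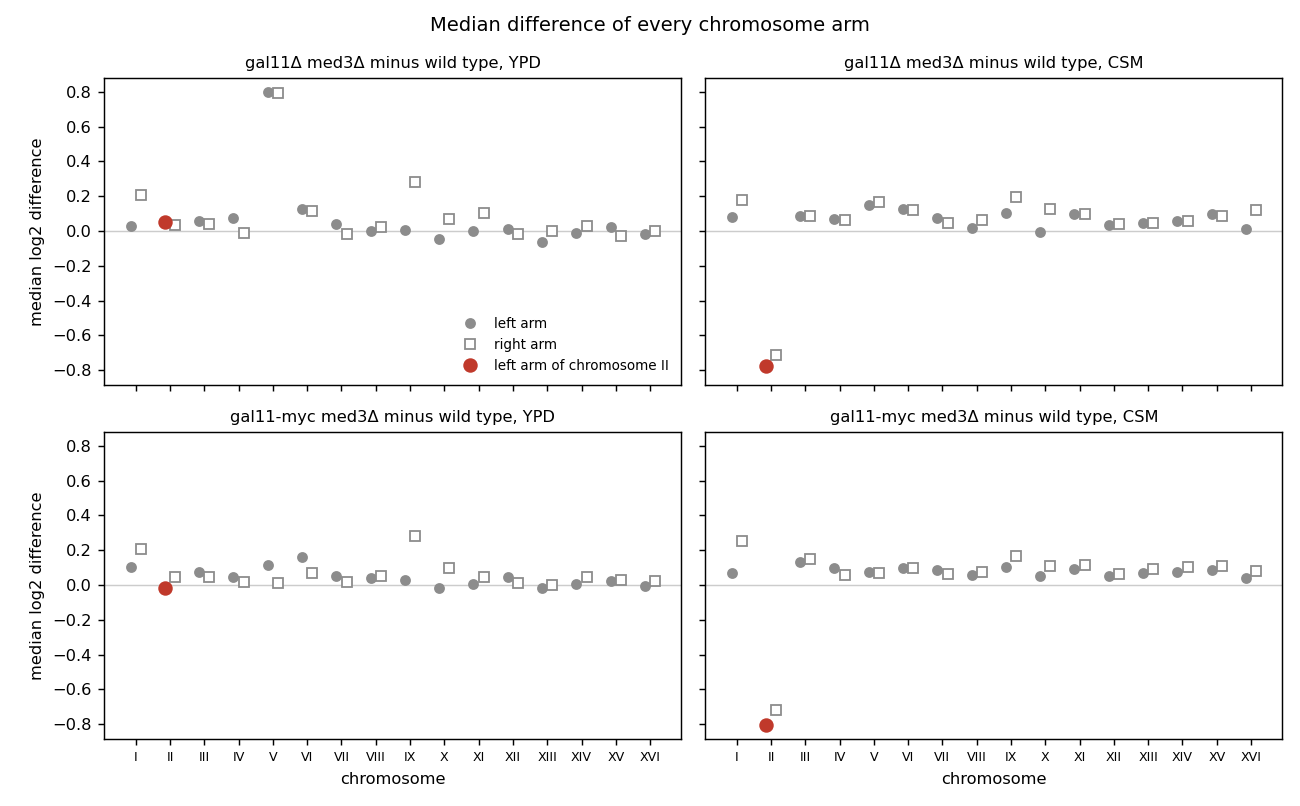
Median log2 difference of the genes of each of the 32 chromosome arms, one point per arm, for each mutant minus wild type comparison. In CSM both arms of chromosome II lie between -0.71 and -0.80 while the 30 other arms lie between -0.01 and 0.25, and in YPD the arms of chromosome V lie at 0.80 in gal11Δ med3Δ.

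In CSM the whole curve of differences for the left arm was displaced, with 85 of the 94 genes (90.4%) below 0 in gal11Δ med3Δ, and its curve lay close to that of the right arm. The differences there ran between -2.10 and 0.71 in that mutant. In YPD the arm's curve crossed 0 at its middle, with 44 genes below 0 in gal11Δ med3Δ and 50 in gal11-myc med3Δ.

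**Figure D3:**
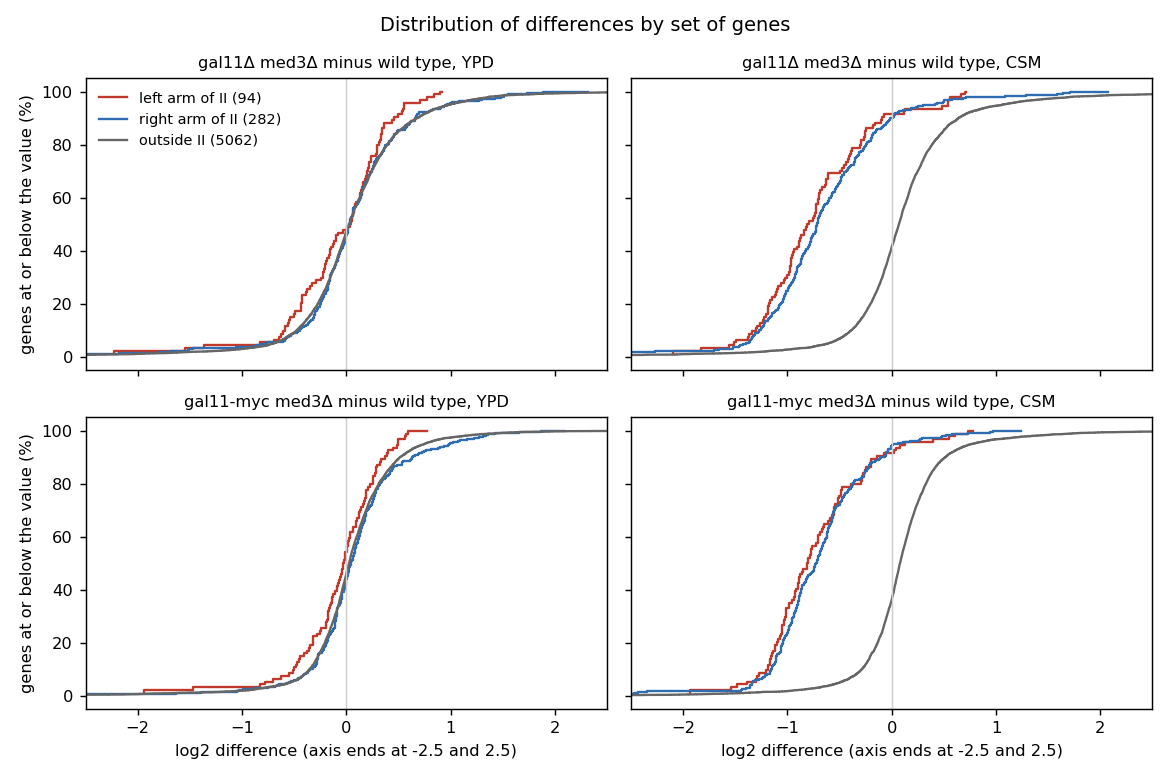
Cumulative share of genes (percent) at or below each log2 difference for the left arm (94 genes), the right arm (282 genes) and the genes outside chromosome II (5062 genes), in the 4 mutant minus wild type comparisons. In CSM both arms are displaced to the left, with left arm medians of -0.77 and -0.80. In YPD the medians of the 3 sets lie between -0.02 and 0.05. The left arm's lower quartile in gal11Δ med3Δ in YPD is -0.34, against -0.18 for the right arm and -0.21 outside chromosome II.

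In the series-wide fit, 24 of the 94 genes were called lower and 19 higher in gal11Δ med3Δ in YPD, beside 19.4% and 27.5% of all genes, and the median difference of the arm was 0.05. In gal11-myc med3Δ 12 were called lower and 13 higher, beside 12.1% and 21.2% of all genes, with a median of -0.02. Without the first or the second wild type array in YPD, the gal11-myc med3Δ counts were 7 lower and 8 higher. Without the third wild type array the medians were 0.06 in gal11Δ med3Δ, with 23 lower and 28 higher, and -0.03 in gal11-myc med3Δ, with 12 lower and 18 higher. Without the third gal11-myc med3Δ array that median was -0.03, with 10 lower and 10 higher. In YPD the 3 mutant arrays lay wholly below those of the wild type for 28 genes in gal11Δ med3Δ (23.1% of all genes) and 18 in gal11-myc med3Δ (17.4%), and wholly above for 22 (29.3%) and 10 (24.6%). The genes of the arm in YPD were thus called in both directions, as were all genes. Nothing particular to the arm is read from these YPD counts. Single genes of the arm differed from wild type in YPD by amounts as large as those in CSM.

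Genes of DNA replication and repair sat near the wild type in YPD and below it in CSM. All 4 measured members of that list were called lower in CSM in both mutants, with medians of -0.99 in gal11Δ med3Δ and -1.04 in gal11-myc med3Δ. The CSM counts of this and the other lists stand beside 77.7% and 81.9% of the arm called lower in gal11Δ med3Δ and gal11-myc med3Δ. Among all genes the shares were 18.4% and 14.2%. No list was tested against the arm, so the counts describe its shift and not a trait of a function. MCM2, which encodes a subunit of the replicative helicase, had CSM values of 0.31, 0.00 and -0.18 in gal11Δ med3Δ, with -0.06, -0.15 and -0.01 in gal11-myc med3Δ, against 0.98, 1.04 and 1.02 in wild type. All mutant arrays lay below all wild type arrays, with log2 differences of -0.97 ± 0.15 (SE) and -1.09 ± 0.15. In YPD the differences of MCM2 were 0.20 and -0.07, and its arrays overlapped. POL12, the B subunit of DNA polymerase alpha-primase, had CSM differences of -1.10 ± 0.11 in gal11Δ med3Δ and -0.99 ± 0.11 in gal11-myc med3Δ, against 0.05 and 0.19 in YPD. TEL1, a checkpoint kinase that controls telomere length, had differences of -1.02 ± 0.14 and -1.30 ± 0.14 in CSM, although one gal11Δ med3Δ array stood at 0.55 and the other two at 0.00 and -0.20, against 1.20, 1.06 and 1.15 in wild type.

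The 6 genes of chromosome segregation and the cell cycle had CSM medians of -1.23 in gal11Δ med3Δ and -1.20 in gal11-myc med3Δ, and all 6 were called lower in both. In YPD 3 of the 6 were called lower in each mutant, beside 25.5% and 12.8% of the arm and 19.4% and 12.1% of all genes. KIP1, a kinesin-5 motor of the mitotic spindle, had the largest negative CSM difference of the 94 genes. Its CSM values were 0.01, -0.22 and -0.40 in gal11Δ med3Δ, with -0.10, -0.02 and 0.00 in gal11-myc med3Δ, against 1.87, 1.82 and 2.0 in wild type. In YPD the KIP1 values were -0.15, -0.26 and 0.00 in gal11Δ med3Δ, with -0.22, -0.19 and 0.00 in gal11-myc med3Δ, against 0.66, 0.66 and 0.74 in wild type. KIP1 was therefore low in both mutants in both media, with differences of -2.10 ± 0.09 and -1.93 ± 0.09 in CSM and of -0.83 ± 0.09 and -0.82 ± 0.09 in YPD. SHE1, a microtubule-associated protein, had CSM differences of -1.37 ± 0.13 and -1.39 ± 0.13. ALK2, a haspin-like kinase, had -1.27 ± 0.12 and -1.14 ± 0.12 in CSM, and its arrays overlapped those of the wild type in YPD, at -0.24 and -0.04.

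Transcription and chromatin genes gave the longest list with every member called lower in CSM, 11 of 11 in both mutants, with medians of -0.98 and -1.05. Of the whole arm 77.7% and 81.9% were called lower. TOD6 encodes a repressor that binds promoters of ribosome biogenesis genes. In CSM its values were -0.73, -1.32 and -1.44 in gal11Δ med3Δ, with 0.00, 0.08 and -0.08 in gal11-myc med3Δ, against 0.59, 0.70 and 0.72 in wild type. The 3 strains were thus separate for TOD6 in CSM, with gal11Δ med3Δ lowest. RRN6, a subunit of the RNA polymerase I core factor, had CSM differences of -1.37 ± 0.15 in gal11Δ med3Δ and -1.05 ± 0.15 in gal11-myc med3Δ, and YPD differences of -0.43 and -0.40. SAS3, the histone acetyltransferase of NuA3, had -0.98 ± 0.14 and -1.27 ± 0.14 in CSM. HAP3, a subunit of the activator of respiratory genes, was at -1.23 ± 0.07 and -1.06 ± 0.07 in CSM and at 0.16 and -0.02 in YPD. PDR3, an activator of drug resistance genes, had CSM differences of -0.75 ± 0.14 and -1.05 ± 0.14.

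ROX3 encodes Med19, a subunit of the Mediator head, and is the only Mediator gene among the 94. Its CSM values were 0.03, -0.06 and 0.00 in gal11Δ med3Δ, with -0.19, -0.05 and -0.01 in gal11-myc med3Δ, against 0.66, 0.66 and 0.76 in wild type. The YPD values were 0.04, 0.09 and -0.01 in gal11Δ med3Δ, with 0.02, 0.01 and -0.20 in gal11-myc med3Δ, against 0.00, -0.05 and -0.09 in wild type. ROX3 thus lay close to the median of the arm in CSM, with differences of -0.70 ± 0.07 and -0.78 ± 0.07, and its groups overlapped in YPD.

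Of 6 genes of RNA processing and modification, 5 were called lower in CSM in each mutant, with medians of -0.83 and -0.80. AAR2, which acts in assembly of the U5 snRNP, was the gene not called in either. UTP20, a component of the small-subunit processome, had CSM values of -0.96, -0.40 and -0.54 in gal11Δ med3Δ, with -0.07, 0.05 and 0.00 in gal11-myc med3Δ, against 0.96, 0.88 and 0.95 in wild type. It was low in YPD too, with differences of -0.59 ± 0.12 and -0.51 ± 0.12 beside -1.56 ± 0.12 and -0.94 ± 0.12 in CSM. HEK2, an RNA-binding protein that takes part in localisation of ASH1 mRNA, had CSM differences of -1.50 ± 0.11 and -1.16 ± 0.11 and YPD differences of -0.43 ± 0.11 and -0.45 ± 0.11. NCL1, a tRNA methyltransferase, was at -0.94 ± 0.08 and -0.82 ± 0.08 in CSM. Among 4 genes of translation and protein maturation, 3 were called lower in gal11Δ med3Δ and 2 in gal11-myc med3Δ. PTH2, a peptidyl-tRNA hydrolase, had CSM differences of -0.99 ± 0.08 and -0.90 ± 0.08, while MAP2, a methionine aminopeptidase, had -0.41 ± 0.05 and -0.52 ± 0.05. ILS1, the cytoplasmic isoleucyl-tRNA synthetase, was not called, at -0.29 ± 0.12 and -0.20 ± 0.12.

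Mitochondrial genes followed the arm, with 8 of 9 called lower in CSM in each mutant and medians of -0.88 and -0.93. PIM1, the Lon protease of the mitochondrial matrix, had CSM values of 0.03, -0.06 and -0.22 in gal11Δ med3Δ, with -0.07, 0.00 and -0.02 in gal11-myc med3Δ, against 1.05, 1.07 and 1.15 in wild type. Its differences were -1.17 ± 0.20 and -1.12 ± 0.20 in CSM and 0.29 and -0.01 in YPD, where the arrays overlapped. CMC2, needed for cytochrome c oxidase, had CSM differences of -1.15 ± 0.15 and -1.02 ± 0.15, and PET112, which acts on mitochondrial glutaminyl-tRNA, had -0.96 ± 0.11 and -1.05 ± 0.11. The size varied within the list, since FMT1, the formyltransferase of the initiator tRNA, was not called, at -0.26 ± 0.12 and -0.29 ± 0.12.

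In the list of membrane traffic, cortex and cell wall, 12 of 15 genes were called lower and 1 higher in gal11Δ med3Δ in CSM, and 14 were called lower in gal11-myc med3Δ. ECM21, an arrestin-like adaptor for endocytosis of permeases, had CSM values of 0.14, 0.00 and -0.18 in gal11Δ med3Δ, with -0.31, -0.24 and -0.24 in gal11-myc med3Δ, against 1.33, 1.31 and 1.18 in wild type. That gave differences of -1.29 ± 0.18 and -1.54 ± 0.18, against -0.16 and -0.35 in YPD. BOI1, a polarity protein of the bud cortex, had -1.18 ± 0.11 in both mutants in CSM. SLA1, an adaptor of actin patches and endocytosis, had -1.11 ± 0.18 and -0.88 ± 0.18 in CSM and 0.46 ± 0.18 and 0.33 ± 0.18 in YPD. PKC1, the protein kinase of cell wall integrity, had CSM differences of -0.84 ± 0.12 and -0.96 ± 0.12 and YPD differences of 0.05 and 0.06. ATG8, the ubiquitin-like protein of autophagosomes, was called higher in gal11Δ med3Δ in YPD, at 0.71 ± 0.15. In CSM it stood at -0.39 ± 0.15, a call that ended without any 1 of the 3 wild type arrays or without either the first or the last gal11Δ med3Δ array.

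All 5 genes of proteolysis and phosphatases were called lower in CSM in both mutants, with medians of -0.75 and -0.77. UBP13, a ubiquitin-specific protease, had CSM differences of -1.18 ± 0.20 and -1.12 ± 0.20. SHP1, a cofactor of Cdc48, had -0.84 ± 0.08 and -0.71 ± 0.08. PTC3, a type 2C protein phosphatase, lay near the median of the arm with a small spread. Its CSM values were 0.00, 0.03 and 0.00 in gal11Δ med3Δ, with -0.06, -0.04 and -0.04 in gal11-myc med3Δ, against 0.82, 0.74 and 0.72 in wild type, while its YPD differences were 0.24 ± 0.06 and 0.17 ± 0.06.

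Metabolism, transport and glycosylation had the list median closest to 0 in gal11Δ med3Δ in CSM, -0.49, beside -0.64 in gal11-myc med3Δ. There 5 of 8 genes were called lower and 1 higher in gal11Δ med3Δ, and 7 lower and 1 higher in gal11-myc med3Δ. SCT1, a glycerol-3-phosphate acyltransferase, had CSM differences of -1.06 ± 0.11 and -0.99 ± 0.11, and AVT5, a vacuolar amino acid transporter, had -0.95 ± 0.07 and -0.89 ± 0.07. BNA4, the kynurenine monooxygenase of NAD synthesis, went the other way in both media. Its CSM values were 0.06, 0.16 and 0.08 in gal11Δ med3Δ, with 0.00, -0.01 and 0.03 in gal11-myc med3Δ, against -0.58, -0.64 and -0.58 in wild type. In YPD it stood at -0.03, 0.09 and 0.09 in gal11Δ med3Δ, with 0.00, 0.21 and 0.05 in gal11-myc med3Δ, against -0.33, -0.25 and -0.86 in wild type. The differences were 0.70 ± 0.12 and 0.61 ± 0.12 in CSM and 0.53 ± 0.12 and 0.57 ± 0.12 in YPD, with no overlap between mutant and wild type arrays.

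**Figure D4:**
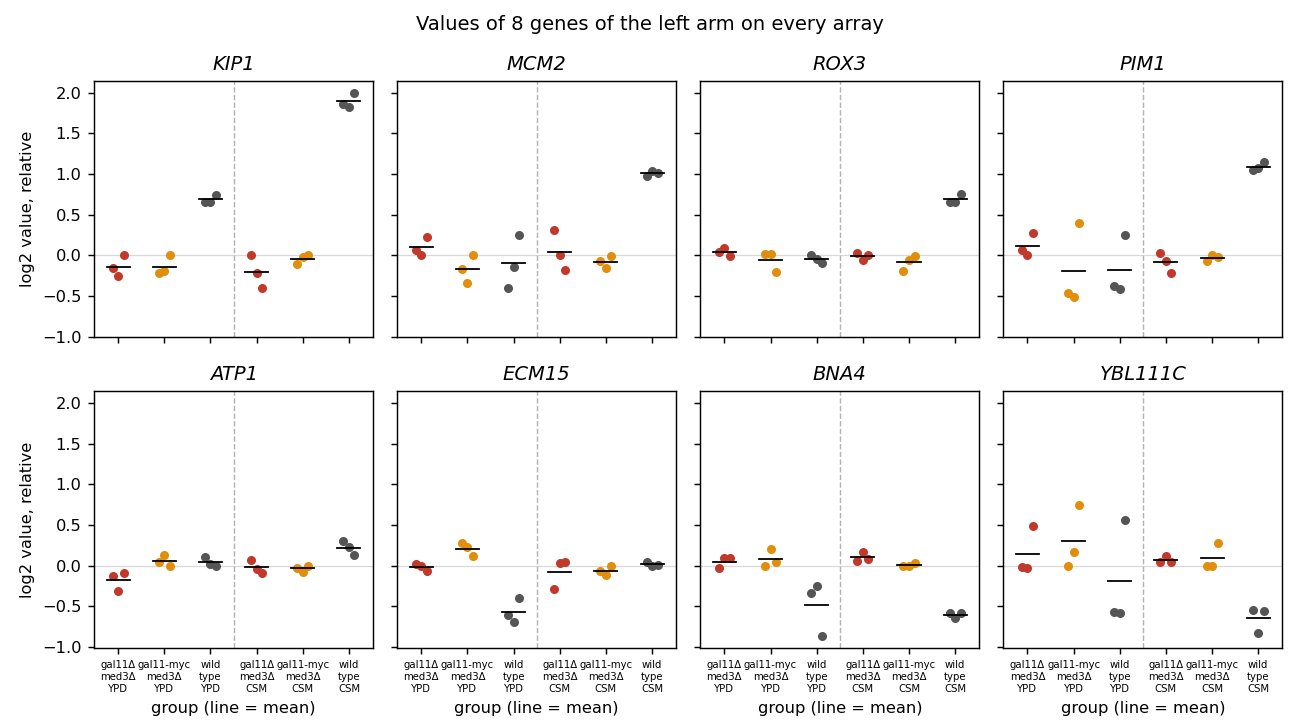
Log2 values of chosen genes of the left arm on each of the 18 arrays of the mutants and the wild type, one panel per gene, with points for arrays and bars for group means. KIP1 shows the widest CSM gap between mutants and wild type, MCM2, ROX3 and PIM1 are lower in both mutants in CSM and overlap wild type in YPD, ECM15 is higher in both mutants in YPD, and BNA4 is higher in both mutants in both media.

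The differences ran along the arm with few breaks. Ordered by position in assembly R64, used here for gene order only, 40 consecutive members of the 94 from BRN1 to COR1 all had a negative CSM difference, in gal11Δ med3Δ and in gal11-myc med3Δ. The longest stretch in which every member was called lower held 25 members in gal11Δ med3Δ (PRE7 to RRN6) and 26 in gal11-myc med3Δ (FUI1 to RRN6). These stretches pass over the genes left out of the set, of which FUS3 was not called lower in gal11Δ med3Δ and RPL19B was not in gal11-myc med3Δ. In YPD the longest stretches of genes called lower held 4 and 2. Divided into 4 segments from the centromere outwards, the CSM medians were -0.90, -0.77, -0.90 and -0.43 in gal11Δ med3Δ, with -0.90, -0.85, -0.86 and -0.57 in gal11-myc med3Δ. The outermost segment was thus the least displaced. It held the 4 members numbered YBL108 and above, a stretch chosen after its values were seen, with medians of 0.55 and 0.47, and the other 23 members of that segment had medians of -0.67 and -0.66. Strand made little difference in CSM. For gal11Δ med3Δ the CSM medians were -0.77 over 42 genes on the Watson strand and -0.78 over 52 on the Crick strand. For gal11-myc med3Δ these CSM medians were -0.80 and -0.83. The strands stood further apart in YPD, mainly for gal11Δ med3Δ, with medians of -0.18 (Watson) and 0.13 (Crick). The YPD medians for gal11-myc med3Δ were -0.08 (Watson) and 0.03 (Crick). A strand effect was not tested.

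**Figure D5:**
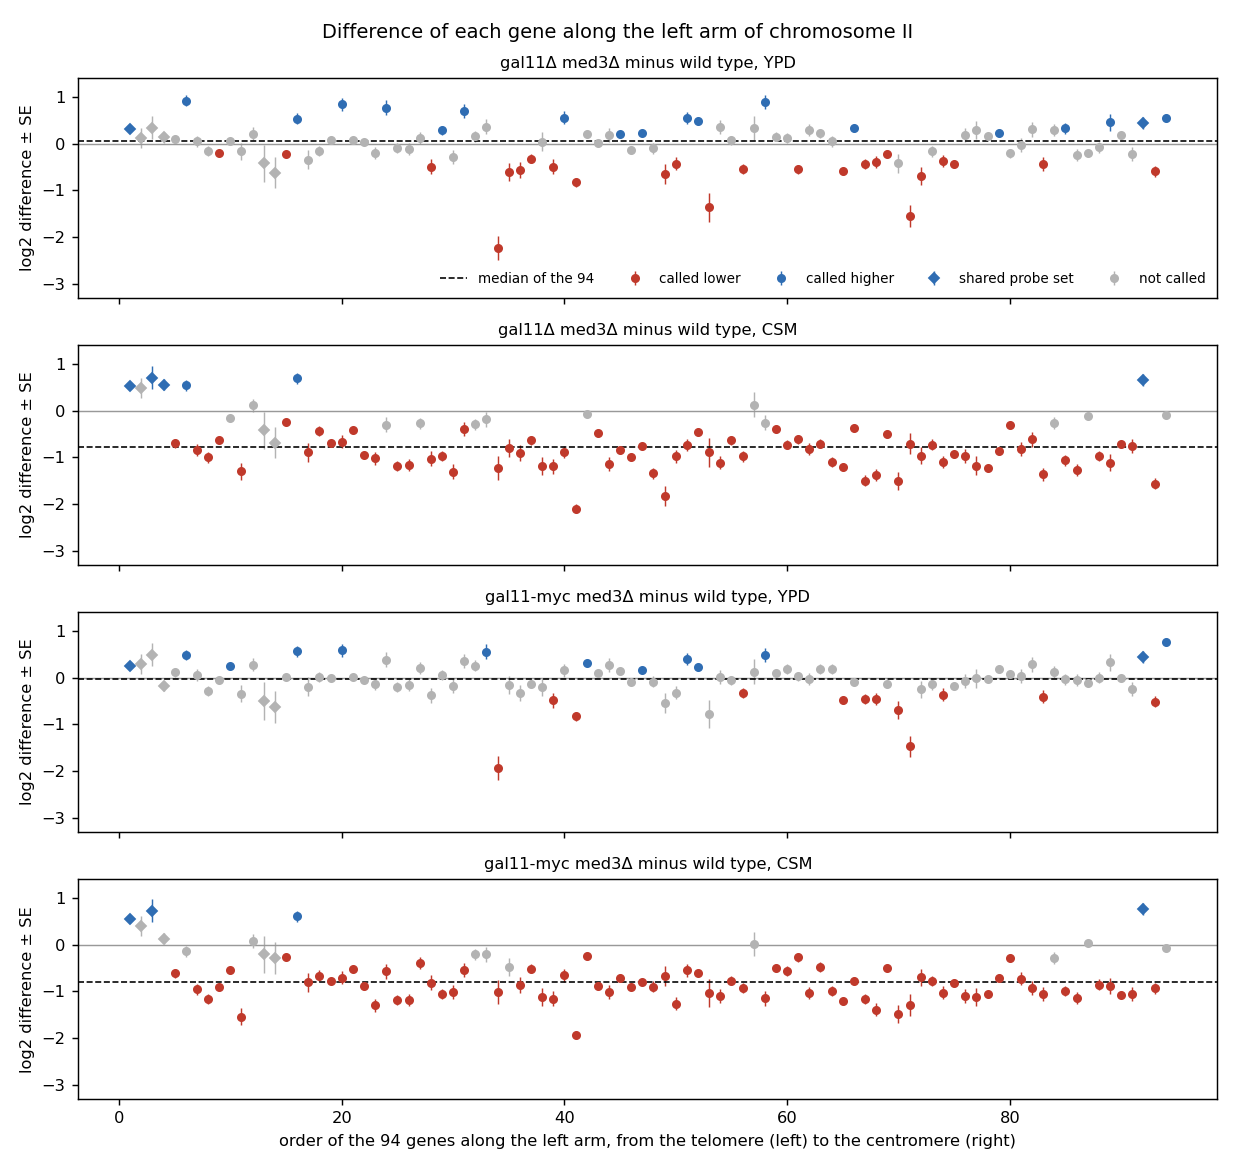
Log2 difference ± SE of each of the 94 genes, in order from the telomere (left) to the centromere (right), in the 4 mutant minus wild type comparisons; the dashed line is the median of the 94, and diamonds mark genes on shared probe sets. In CSM the points lie around -0.77 and -0.80 along the whole arm, apart from the telomeric end and a few single genes, and in YPD they scatter around 0.

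At the telomeric end stand YBL113C, YBL112C and YBL111C, members of the Y′ family of repeated subtelomeric genes, and PAU9, one of the seripauperin family. Their probe sets, with those of the Ty retrotransposon genes YBL005W-A, YBL100W-A and YBL100W-B, can match copies elsewhere in the genome, so these 7 values cannot be assigned to the arm. YBL111C had CSM values of 0.04, 0.12 and 0.05 in gal11Δ med3Δ, with 0.00, 0.00 and 0.27 in gal11-myc med3Δ, against -0.54, -0.82 and -0.56 in wild type. All mutant arrays lay above all wild type arrays, with differences of 0.71 ± 0.24 and 0.73 ± 0.24, but neither was called without the second wild type array. YBL005W-A, inside the arm near the centromere, was higher as well, at 0.66 ± 0.13 and 0.78 ± 0.13 in CSM and 0.44 ± 0.13 and 0.45 ± 0.13 in YPD. Over the 7 genes on shared probe sets the CSM medians were 0.54 in gal11Δ med3Δ and 0.40 in gal11-myc med3Δ. Over the 87 on unique probe sets, a division made after the data were seen, they were -0.84 and -0.85, with 73 and 77 called lower and 2 and 1 called higher. BNA4 and SRO77 were the 2 unique ones called higher in gal11Δ med3Δ, and BNA4 the 1 in gal11-myc med3Δ.

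At the centromere the arm ends with ECM15 (YBL001C), which did not share the CSM displacement. Its CSM values were -0.29, 0.03 and 0.04 in gal11Δ med3Δ, with -0.07, -0.12 and 0.00 in gal11-myc med3Δ, against 0.04, 0.00 and 0.01 in wild type. In YPD it stood at 0.02, 0.00 and -0.06 in gal11Δ med3Δ, with 0.28, 0.23 and 0.12 in gal11-myc med3Δ, against -0.60, -0.69 and -0.39 in wild type. ECM15 thus differed by -0.09 ± 0.08 and -0.08 ± 0.08 in CSM and by 0.55 ± 0.08 and 0.77 ± 0.08 in YPD. Just across the centromere, outside the set, NTH2 (YBR001C), a trehalase gene, had a like pattern, at 0.02 ± 0.09 and -0.23 ± 0.09 in CSM and 0.61 ± 0.09 and 0.55 ± 0.09 in YPD. The next gene outward, RER2, a dehydrodolichyl diphosphate synthase, was at -1.23 ± 0.11 and -1.10 ± 0.11 in CSM, so the displacement did not end at the centromere.

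A gene's place within the arm in CSM was related to its difference in YPD. The wild type and mutant arrays of the media are separate, so these differences share no array. Across the 94 genes the YPD and CSM differences had a Pearson correlation of 0.47 in gal11Δ med3Δ and 0.52 in gal11-myc med3Δ (Spearman 0.50 and 0.56). Across the 5062 genes outside chromosome II the Pearson values were 0.66 and 0.72. These are descriptions across genes, which are not independent replicates. The CSM difference lay below the YPD difference for 84 of the 94 genes (89.4%) in gal11Δ med3Δ and 83 (88.3%) in gal11-myc med3Δ, against 43.3% and 40.5% of genes outside chromosome II.

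Several genes differed from wild type in both media. SCS22, a homologue of VAP proteins of the endoplasmic reticulum, was higher than wild type in YPD, at 0.84 ± 0.14 in gal11Δ med3Δ and 0.59 ± 0.14 in gal11-myc med3Δ, and lower in CSM, at -0.67 ± 0.14 and -0.70 ± 0.14. FUI1, the uridine permease, had YPD values of 0.20, 0.05 and 0.68 in gal11Δ med3Δ, with 0.09, -0.41 and 0.00 in gal11-myc med3Δ, against -0.40, -0.52 and -0.85 in wild type. Its YPD differences were 0.90 ± 0.15 and 0.48 ± 0.15, and its CSM differences -0.25 ± 0.15, not called, and -1.15 ± 0.15. On the other side, YBL029W had differences of -1.55 ± 0.23 and -1.46 ± 0.23 in YPD and -0.70 ± 0.23 and -1.29 ± 0.23 in CSM. YBL071C-B had the largest negative YPD difference of the 94 genes. In YPD it stood at -0.21, -0.16 and -1.24 in gal11Δ med3Δ, with 0.00, 0.03 and -0.77 in gal11-myc med3Δ, against 1.76, 1.98 and 1.33 in wild type. Its differences of -2.23 ± 0.25 and -1.94 ± 0.25 in YPD stood beside -1.23 ± 0.25 and -1.02 ± 0.25 in CSM, the reverse order of the arm as a whole. MOH1 was lower in gal11Δ med3Δ in YPD, at -1.37 ± 0.30, and YBL028C at -0.69 ± 0.18. In YPD MOH1 stood at 0.00, 0.52 and -0.81 in gal11-myc med3Δ, against 0.84, 0.64 and 0.57 in wild type. Its CSM values were 0.36, -0.03 and -0.11 in gal11Δ med3Δ, with -0.08, -0.11 and 0.00 in gal11-myc med3Δ, against 1.04, 0.96 and 0.89 in wild type. YBL028C was likewise below all wild type arrays in CSM in both mutants.

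As a difference of differences, CSM minus YPD, the median over the 94 genes was -0.76 in gal11Δ med3Δ and -0.75 in gal11-myc med3Δ. The right arm of chromosome II stood at -0.74 and -0.83, lower than the left arm in gal11-myc med3Δ. In gal11Δ med3Δ the left and right arms of chromosome V stood at -0.61 and -0.65, so a low median in that contrast was not particular to the left arm of chromosome II. In limma 62 of the 94 genes were called lower and 1 higher in gal11Δ med3Δ, beside 16% and 15.1% of all genes. YBL071C-B was that gene, named after its value was seen, at 1.01 ± 0.36, and it was not called under either recentring of the arrays. In gal11-myc med3Δ 65 were called lower, beside 8.17% of all genes, and 0 higher, beside 5.51%. At an unadjusted p under 0.05 in limma 2 were higher, beside 13.4% of all genes. The values in YPD and CSM were each centred on their own set, so a wild type change between media cannot be read on its own. These contrasts compare mutant minus wild type gaps, and a departure of the wild type arrays in either medium enters them.

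The comparison of the mutants with each other is not independent of the choice of the arm. An arm lower by like amounts in both mutants, against shared wild type arrays, differs little between them by arithmetic. The 94 genes as a group did not separate there. The median difference of gal11-myc med3Δ minus gal11Δ med3Δ was 0.01 in YPD and 0.01 in CSM, and the arm ranked 7 and 15 from the lowest of the 32 arms. In CSM 5 of the 94 genes were called higher in gal11-myc med3Δ and 8 lower, beside 7.65% and 10.3% of all genes. Without the first gal11Δ med3Δ array the count of higher genes was 11, without either of the other two it was 3, and without the first or the second gal11-myc med3Δ array it was 2. In YPD 4 were called higher and 4 lower, beside 6.15% and 8.96%. With the replicate number as a block, which the YPD arrays follow only in part, the YPD counts were 7 higher and 5 lower. Leaving out any gal11Δ med3Δ array, or the first or second gal11-myc med3Δ array, gave 1 or 2 higher, and leaving out the third gal11-myc med3Δ array gave 9 higher and 10 lower. Without the first or the second gal11-myc med3Δ array 2 and 1 were called lower.

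Among the genes that did separate the mutants in CSM, TOD6 was the farthest. It was higher in gal11-myc med3Δ than in gal11Δ med3Δ by 1.16 ± 0.22 (limma adjusted p = 0.0012), with the values given above. UTP20 was also higher, by 0.63 ± 0.12 (limma adjusted p = 0.00103). Both calls held without any single array. HEK2 was higher by 0.33 ± 0.11 (limma adjusted p = 0.0461). Among the runs that left out 1 array, its call was kept only without the first gal11Δ med3Δ array. The call of HEK2 also ended with the replicate block. URA7, a CTP synthase, was higher in gal11-myc med3Δ in both media. Its CSM values were 0.00, 0.03 and -0.07 in gal11-myc med3Δ against -0.39, -0.27 and -0.39 in gal11Δ med3Δ, a difference of 0.34 ± 0.10 (limma adjusted p = 0.0245). In YPD the URA7 values were 0.30, 0.20 and 0.00 against -0.35, -0.57 and -0.31, a difference of 0.58 ± 0.10 (limma adjusted p = 0.000461). The YPD call of URA7 held without any single array, and the CSM call ended without the first or second gal11-myc med3Δ array or the first or the third gal11Δ med3Δ array. YBL055C was the remaining gene called higher in CSM, by 0.45 ± 0.12 (limma adjusted p = 0.0147), a call that ended without the first or second gal11-myc med3Δ array or the second gal11Δ med3Δ array.

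Genes that were lower in gal11-myc med3Δ than in gal11Δ med3Δ in CSM included FUI1 and SRO77. FUI1 had values of -0.80, -0.79 and -0.84 in gal11-myc med3Δ against 0.26, 0.00 and -0.01 in gal11Δ med3Δ, a difference of -0.90 ± 0.15 (limma adjusted p = 0.000535). SRO77, which acts in docking of exocytic vesicles, had CSM values of -0.10, -0.20 and -0.15 in gal11-myc med3Δ against 0.38, 0.68 and 0.54 in gal11Δ med3Δ. The groups did not overlap, and the difference was -0.68 ± 0.11 (limma adjusted p = 0.000397). In YPD SRO77 was lower in gal11-myc med3Δ as well, at -0.43 ± 0.11 (limma adjusted p = 0.0155). RIB1, the GTP cyclohydrolase of riboflavin synthesis, was lower in gal11-myc med3Δ in both media, at -0.39 ± 0.09 in CSM (limma adjusted p = 0.00429) and -0.43 ± 0.09 in YPD (limma adjusted p = 0.0022). LDB7, a subunit of the RSC chromatin remodeller, differed by -0.35 ± 0.07 in CSM (limma adjusted p = 0.00314), and SFT2, a Golgi transport protein, by -0.38 ± 0.07 (limma adjusted p = 0.000811). The others lower in CSM were YEL1, RTG3 and PAU9, at -0.41, -0.28 and -0.43. Of the 8 lower in CSM only PAU9 lost its call in an alternative, without the second gal11-myc med3Δ array or the first gal11Δ med3Δ array. In YPD the remaining calls were POP8, NCL1 and ATP1, higher in gal11-myc med3Δ by 0.30, 0.26 and 0.23, and SCT1 and SEC17, lower at -0.36 and -0.26. Of the 8 YPD calls those of RIB1 and URA7 held without any single array. The call of SRO77 ended without the second gal11-myc med3Δ or the third gal11Δ med3Δ array, and the other 5 ended without any of at least 3 arrays, among them the first and the second gal11-myc med3Δ array and the second gal11Δ med3Δ array. With the replicate block SCT1 was no longer called.

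The 11 genes left out of the set lay on the same arm and were lower in CSM too. They had a median of -0.43 and 10 called lower in gal11Δ med3Δ, and a median of -0.52 and 8 called lower in gal11-myc med3Δ. Beside these counts stand 18.4% and 14.2% of all genes called lower, and 77.7% and 81.9% of the arm. ECM13 differed by -3.37 ± 0.31 and -4.62 ± 0.31 in CSM and by -2.49 ± 0.31 and -1.63 ± 0.31 in YPD. These differences were larger than that of any of the 94 in CSM in both mutants and in YPD in gal11Δ med3Δ, but not in YPD in gal11-myc med3Δ, where YBL071C-B stood at -1.94. FUS3, the mitogen-activated kinase of mating, differed by -0.29 ± 0.17 and -0.52 ± 0.17 in CSM. The histone genes HTA2 and HTB2 differed by -0.33 ± 0.08 and -0.90 ± 0.08 in gal11Δ med3Δ in CSM and by -0.37 ± 0.08 and -0.65 ± 0.08 in gal11-myc med3Δ. SSA3, an Hsp70 chaperone gene, was at -0.95 ± 0.16 and -0.78 ± 0.16 in CSM.

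The authors' deposited table of fold changes holds all 94 genes in each of its 5 comparisons. The authors' deposited table gave CSM medians of -0.77 for gal11Δ med3Δ and -0.80 for gal11-myc med3Δ after conversion to log2, as above, and YPD medians of 0.04 and -0.01. It also compares the 2 wild types in YPD, which the centred values cannot. In that comparison of the authors' deposited table the arm had a median of -0.01, with 0 of 94 genes past 2-fold in either direction, beside 0.497% and 1.82% of all genes in the deposited order of sign. The medians of the 30 arms of other chromosomes in the authors' deposited table lay between -0.09 and 0.15. The sign of that column appeared turned against its name, since STE2 stood at -6.61, LYS2 at -6.47 and MET17 at 8.78 in the authors' deposited table, so no direction is read from it. Both strains are labelled MATa, and the size of the STE2 difference goes against that label for one of them. No such comparison with a second wild type was used here for CSM.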

How the data were processed

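The series matrix of the 21 arrays was analysed. Per the submitters' processing notes the authors' values were made with RMA, of which no version is given. The deposited log2 values hold 10928 probe sets, each set to a median of 0 within the YPD set, the CSM set and the BY4742 arrays, so absolute levels are lost. The deposited fold change table, treated here as a score because it holds signed linear fold changes, was made in GeneSpring 11.5.1 per the file headers. The deposited p-values in that table were not used. In the platform annotation 7244 probe sets carried 1 symbol, 1 carried several, and for 3683 it gave no symbol. The gene table of assembly R64, used for names and gene order only, held 5498 of the 7244 and lacked 1746. The 47 genes with more than 1 probe set were averaged, giving 5449 genes, and no filter on low values was applied since the centred values hold no level to filter on, so all 94 genes of the arm were tested.

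All 21 arrays were fitted in limma 3.58.1 (R 4.3.3, lmFit and eBayes) as 7 group means with 14 residual degrees of freedom, with 2-sided tests and Benjamini-Hochberg adjustment across all 5449 genes. SE is the moderated standard error of a difference. The fit was tested on simulated data. Both mutant comparisons in a medium share 3 wild type arrays. Precision is limited by the number of arrays. The labels used give no batch. Same-numbered arrays of different strains deviated together in YPD, with correlations between 0.146 and 0.606 over 9 pairs, but not in CSM, with -0.215 to 0.221. Some YPD pairs with unlike numbers did so too. The first wild type and second gal11-myc med3Δ arrays correlated at 0.450, above 0.146 for the first arrays of both. A fit with replicate number as a block was run beside the main one. Other alternatives recentred the arrays, kept each probe set apart, fitted only the groups compared, left out each array or BY4742, used robust eBayes, changed the members or the summary of the arm, or took the authors' fold changes.

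The members, the 9 functional lists and the tests were chosen with earlier results of these data known. Genes named in the text were the 5 largest differences in each direction per comparison among called genes whose arrays do not overlap, up to 3 per list, the 3 genes nearest the median of the arm per comparison, ROX3, both ends of the arm and the genes left out by name. Genes that separate the mutants, AAR2, ILS1, FMT1, NTH2 and RER2 were added after their values were seen.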

Additional observations from a re-analysis of the deposited data

Results flagged for a closer look

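The difference of the mutant effect between the media was itself tested per gene in limma, as a contrast of the CSM and YPD differences. For gal11Δ med3Δ 62 of the 94 genes were called lower in CSM than in YPD and 1 higher, YBL071C-B, with a median of -0.76 over the 94 genes. For gal11-myc med3Δ 65 were called lower and 0 higher, with a median of -0.75. The right arm of chromosome II had medians of -0.74 for gal11Δ med3Δ and -0.83 for gal11-myc med3Δ. At an unadjusted p under 0.05 in limma, 72 genes were lower and 3 higher for gal11Δ med3Δ, and 76 were lower and 2 higher for gal11-myc med3Δ. At that unadjusted cut 20.6% of all genes were lower and 20.6% higher for gal11Δ med3Δ, and 13.1% and 13.4% for gal11-myc med3Δ. At an adjusted p under 0.05, 16% of all genes were called lower and 15.1% higher for gal11Δ med3Δ, and 8.17% and 5.51% for gal11-myc med3Δ. The arm was chosen on these contrasts, both mutants share the wild type arrays, and a departure of either set of wild type arrays enters both contrasts.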

How the results depend on the processing

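The number of arrays, 3 per group, and the centring of the deposited values limit what can be read, and the wild type arrays in a medium are shared by both mutants. Among the 196 results of the 49 named genes, no alternative run changed the sign of a called difference. In CSM the arm was lower in both mutants under every alternative. For gal11Δ med3Δ its median of -0.77 was -0.83 with arrays centred on genes outside chromosome II, -0.84 for genes with a symbol of their own and -0.84 on unique probe sets, and the mean was -0.71. The genes called higher then numbered 3 for own symbols and 2 for unique probe sets. For gal11-myc med3Δ the median of -0.80 was -0.84 with arrays centred outside chromosome II, -0.86 for own symbols and -0.85 on unique probe sets, the mean was -0.71 and the trimmed mean -0.75, and 1 gene was called higher for own symbols and 1 for unique probe sets. The probe set division was chosen after seeing the data. In wild type in CSM the arm level was 0.72 with arrays centred on all genes and 0.73 centred outside chromosome II. In YPD the gal11Δ med3Δ median of 0.05 was -0.010 with the left-out genes put back, the mean was -0.047 and the trimmed mean -0.022, so it has no settled sign. For gal11-myc med3Δ the mean was -0.052, and 3 genes were called higher when only the 2 groups compared were fitted. With 2 segments in place of 4, the gap between segment medians was 0.037 in YPD and 0.14 in CSM for gal11Δ med3Δ, and 0.047 and 0.20 for gal11-myc med3Δ.

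With the replicate block 7 genes were called higher between the mutants in YPD, 3 in the medium contrast of gal11Δ med3Δ and 1 in that of gal11-myc med3Δ, and no other count of calls moved by over 1.5 times. Among the named genes the block ended 3 calls and added 5. With arrays centred on all genes or outside chromosome II, 0 genes were called higher in the medium contrast of gal11Δ med3Δ in limma. Leaving out 1 array at a time, the gal11Δ med3Δ median in YPD lay between -0.013 and 0.061. The gal11-myc med3Δ median in YPD lay between -0.035 and 0.0078, with 7 to 12 genes lower and 8 to 18 higher, the lowest counts without wild type array 1 or 2. Between the mutants in YPD the median lay between -0.012 and 0.029, with 1 to 10 lower and 1 to 9 higher, and in CSM 2 to 11 were higher. In the medium contrasts 0 to 3 were higher for gal11Δ med3Δ and 0 to 1 for gal11-myc med3Δ. The 49 named genes gave 196 results and 2548 alternative values, of which 2414 kept their side of the threshold, 95 lost a call and 39 gained one. The causes were not tested.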
